A study of Mus musculus with 34 samples.

Results

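The PRAME-like genes described here are 10 mouse genes, Pramef6, Pramef8, Pramef12, Pramef17, Pramef25, Pramel1, Pramel4, Pramel5, Pramel6 and Pramel7, found by their symbols in the deposited tables. All 10 were listed among the 49686 symbols of the zygote and late 2-cell tables and among the 51734 symbols of the blastocyst table. Single mouse embryos were sequenced after zygotes had received mRNA for wild-type (WT) CHK1, a kinase of the DNA damage checkpoint, or for CHK1 carrying the R442Q change. There were 5 WT and 6 R442Q zygotes and 4 WT and 5 R442Q late 2-cell embryos, none given a CHK1 inhibitor, and 7 WT and 7 R442Q blastocysts, all cultured in 30 nM of a CHK1 inhibitor. Both arms therefore received CHK1 mRNA in addition to the embryo's own gene, and no uninjected embryos were analysed here. The title of the study names the question as how the transcriptome of preimplantation embryos looks when the checkpoint is perturbed. Since the inhibitor was given at 1 stage only, blastocysts differ from the earlier embryos in treatment as well as stage, and these cannot be told apart. Whether the embryos of a group came from separate litters is not given, so each p-value measures the spread between single embryos only.

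PRAME proteins are leucine-rich repeat proteins, named after a human antigen preferentially expressed in melanoma, and several act as the substrate-binding part of ubiquitin ligases built on the scaffold CUL2. The family has expanded in rodents, where many copies are expressed in germ cells and in the cleaving embryo. Pramel7 is known from the inner cell mass and from mouse embryonic stem cells, where it promotes breakdown of UHRF1, the factor that brings the maintenance DNA methyltransferase DNMT1 to replicating DNA. Pramel6 is a neighbour of Pramel7 that is likewise known from early embryos and stem cells, and Pramef12 and Pramel1 are known from the male germ line.

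The 10 genes lie in 2 groups in the mouse genome (GRCm38, GENCODE M21). Pramel7 (chr2:87489087-87497093, minus strand) and Pramel6 (chr2:87506565-87510872, plus strand) lie within 21.8 kb of each other. The other 8 lie within 1014.0 kb of chromosome 4, between the start of Pramel1 (chr4:143394428-143400160, plus) and the end of Pramef12 (chr4:144391674-144408464, minus). Between these, in order, are Pramef8 (chr4:143412426-143421091, plus), Pramef6 (chr4:143894237-143900380, minus), Pramef25 (chr4:143948580-143951016, minus), Pramef17 (chr4:143991119-143994369, minus), Pramel4 (chr4:144059126-144069327, plus) and Pramel5 (chr4:144270633-144280488, minus). All are annotated as protein coding. Pramef12 overlaps an antisense gene, Pramef12os, whose group means ran from 0 to 0.612 FPKM (fragments scaled to transcript length and library size). Use of strand in the counting is not given in the sources used here, so reads from the overlap could belong to either gene.

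How far the copies resemble each other sets which values can be read gene by gene. Coding sequences of Pramel4 and Pramel5 were identical at 93.7% of aligned bases, the closest pair, and Pramef6 stood at 87.8% to Pramel4 and 87.4% to Pramel5. Pramef17 and Pramel7, on different chromosomes, were identical at 80.9%, and Pramef8 and Pramef25 at 75.5%. The lowest value was 62.0%, for Pramef25 and Pramel1. Of all 50-base stretches in its transcripts, Pramel4 shared 87.4% with another annotated gene, mostly Gm13102. Pramef17 shared 73.5%, all with Gm13128, and Pramef25 shared 63.6% with a set of copies such as Gm13040, Gm13043, Gm13101 and Gm13119. Pramef6 shared 33.7%, chiefly with Gm13083, and Pramel5 25.9%, with Pramel4 and Gm13102. Pramel7 shared 1.43%, and Pramel1, Pramel6, Pramef8 and Pramef12 shared none. Values of Pramel4, Pramel5, Pramef6, Pramef17 and Pramef25 are therefore uncertain as to which copy the reads came from, and the results of these genes in zygotes and late 2-cell embryos were also computed with such copies summed. The genes added shared from 11.1% (Gm13078 with Pramef6) to 85.0% (Gm13102 with Pramel4) of the stretches. Such sums therefore also pool distinct genes.

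**Figure D1:**
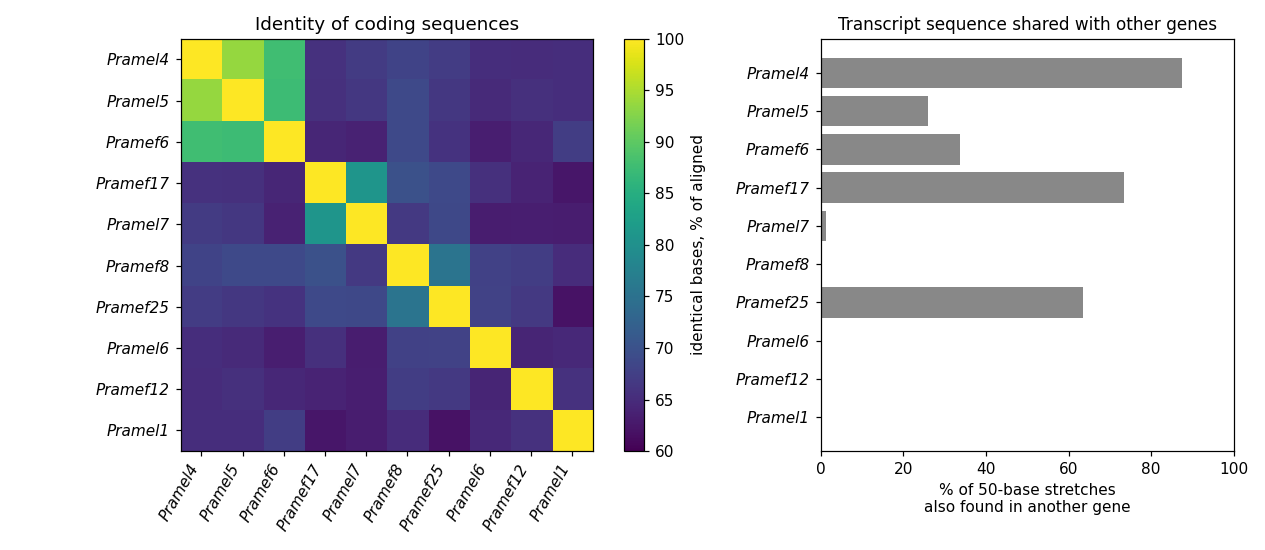
The left panel shows the percentage of identical bases between aligned coding sequences for each pair of the 10 genes, on a colour scale from 60 to 100. The right panel shows, for each gene, the percentage of its 50-base stretches that also occur in another annotated gene, from 0 for Pramel1, Pramel6, Pramef8 and Pramef12 to 87.4% for Pramel4.

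Only some of these pairs resembled each other upstream of their transcription starts. RefSeq windows (GRCm38.p6) were found for 9 of the 10 genes, Pramef8 being the exception. In pairwise alignments of the 250 bases before the start, Pramel4 and Pramel5 had 220 identical bases (88%) and Pramef17 and Pramel7 had 203 (81.2%). The next pair, Pramef6 and Pramel6, had 149, and Pramef6 had 148 in common with Pramel4 and 134 with Pramel5. The windows below are shown because these are the genes whose levels changed most between stages, together with Pramef17 as the upstream twin of Pramel7. They are written 5′ to 3′ on the strand of the gene, ending at the base before the RefSeq start, and capitals mark each match to a searched motif. The last bases of the Pramel5 window fall in an exon of another GENCODE transcript of the same gene. The whole Pramel7 window lies inside the GENCODE gene, since other transcripts of Pramel7 start upstream of it, and its last bases are exonic in 1 of them.
Pramel4, chr4:144058875-144059124, plus strand: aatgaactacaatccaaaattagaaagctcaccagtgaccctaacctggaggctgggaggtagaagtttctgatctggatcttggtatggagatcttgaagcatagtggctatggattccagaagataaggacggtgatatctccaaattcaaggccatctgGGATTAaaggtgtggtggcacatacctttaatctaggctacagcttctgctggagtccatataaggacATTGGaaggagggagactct
Pramel5, chr4:144280467-144280716, minus strand: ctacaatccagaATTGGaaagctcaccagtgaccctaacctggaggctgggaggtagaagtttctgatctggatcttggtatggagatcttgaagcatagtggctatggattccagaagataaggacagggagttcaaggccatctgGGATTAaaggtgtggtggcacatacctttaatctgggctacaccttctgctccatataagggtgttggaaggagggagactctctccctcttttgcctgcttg
Pramel7, chr2:87492419-87492668, minus strand: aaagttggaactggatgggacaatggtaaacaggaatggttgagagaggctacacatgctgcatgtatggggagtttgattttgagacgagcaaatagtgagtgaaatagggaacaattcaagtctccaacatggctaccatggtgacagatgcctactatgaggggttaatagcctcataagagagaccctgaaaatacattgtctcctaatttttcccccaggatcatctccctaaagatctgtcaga
Pramef17, chr4:143994370-143994619, minus strand: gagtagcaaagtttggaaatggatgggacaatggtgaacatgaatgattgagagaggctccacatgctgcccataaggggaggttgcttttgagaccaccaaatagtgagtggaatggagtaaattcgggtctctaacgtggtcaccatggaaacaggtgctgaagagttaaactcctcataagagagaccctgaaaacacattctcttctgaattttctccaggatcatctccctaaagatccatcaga
Pramel6, chr2:87506315-87506564, plus strand: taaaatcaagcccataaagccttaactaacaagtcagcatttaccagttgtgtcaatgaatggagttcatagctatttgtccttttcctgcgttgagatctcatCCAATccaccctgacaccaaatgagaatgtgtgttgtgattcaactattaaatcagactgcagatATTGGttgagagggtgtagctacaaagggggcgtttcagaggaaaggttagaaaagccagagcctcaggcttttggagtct

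The motifs searched, on both strands, were CCAAT (the CCAAT box), TATAAA (the TATA box), GGATTA (the core bound by OBOX and OTX homeodomain factors) and the longer motif of the 2-cell factor DUX. No pair of these overlapped in a window. GGATTA was found in Pramel4 at 88 bases and in Pramel5 at 103 bases before the start. It was also found in Pramef6, as TAATCC on the opposite strand, at 103 bases before the start. These letters occurred in 6.25% of the 32851 RefSeq windows of the same length. CCAAT was found in Pramel1, Pramel4 and Pramel5, and at a pair of places in Pramel6, against 33.9% of all windows. TATAAA (12.4% of all windows) and the DUX motif (0.0304%) were found in none of the 9 windows, and Pramel7, Pramef12, Pramef17 and Pramef25 held none of the 4 motifs. The matches describe letters only.

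Zygote libraries held 7183632 to 11296522 estimated counts, and late 2-cell libraries 5727956 to 8916343. The depth of blastocysts is unknown in counts. The 7 oocyte and zygote markers (Zp1, Zp2, Zp3, Gdf9, Bmp15, Oosp1 and Nlrp5) summed to 4793 to 6403 FPKM in WT zygotes and to 3338 to 4794 in R442Q zygotes, and 5 of the 6 R442Q zygotes lay below every WT zygote. The 7 trophectoderm markers, such as Cdx2 and Krt8, summed to 1250.3 to 24288 FPKM in blastocysts, against at most 75.6 in earlier embryos. The 7 cumulus cell markers summed to at most 3.39 FPKM in zygotes. In late 2-cell embryos only 2 of the 7 averaged 1 FPKM or more in each genotype. There the 7 summed to 42.98 to 71.6 FPKM in WT, where Ptx3, Foxl2 and Fshr were at 0, and to 17.2 to 71.7 in R442Q, where Fshr was at 0. Of the 5 R442Q embryos 4 were at 32.3 FPKM or less, below every WT embryo, and replicate 3 was highest. In late 2-cell embryos the sums of the 7 oocyte and zygote markers were 1244 to 3180 FPKM in WT and 1707 to 6951 in R442Q. Those of the 7 markers of the 2-cell stage, among them Zscan4c, Zscan4d and Zfp352, were 156 to 1639 in WT and 818 to 2903 in R442Q. Of the 5 R442Q embryos, 4 lay above every WT embryo in the oocyte and zygote sum, with a median of 4128 FPKM against 1523 in WT, and 3 in the 2-cell sum, with a median of 1935 against 513. The part of these marker sums in the genotype results of either stage was not tested.

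Pramel6 and Pramel7, the adjacent genes on chromosome 2, went from nearly no reads in zygotes to some of the highest levels of the 10 in late 2-cell embryos. Pramel7 stood at 0, 0.34, 0.3, 0.32 and 0.26 FPKM in the 5 WT zygotes and at 149.9, 95.9, 106 and 119 FPKM in the 4 WT late 2-cell embryos. In R442Q embryos its zygote values ran from 0 to 0.88 with a median of 0.46 FPKM, and those of the 5 late 2-cell embryos were 201, 193, 175, 299.6 and 248. Every late 2-cell embryo was far above every zygote. From zygote to late 2-cell, Pramel7 rose by 8.87 ± 0.54 (SE) on the log2 scale of counts in WT (edgeR's quasi-likelihood test, adjusted p = 6.2e-12) and by 8.80 ± 0.48 in R442Q embryos (edgeR, adjusted p = 6.5e-13). Pramel7, Pramel6, Pramel5, Pramel1 and Pramef6 had enough reads for this test through their late 2-cell embryos alone. They had to differ, so their adjusted p-values for the stage change describe the values and support nothing further.

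Pramel6 was listed at 0, 0, 1.18, 0.1 and 0.16 FPKM in WT zygotes and at 91.4, 122, 48.1 and 97.4 FPKM in WT late 2-cell embryos. R442Q zygotes ran from 0 to 0.9 with a median of 0.48 FPKM, and R442Q late 2-cell embryos had 99.2, 143, 119, 333 and 100.1. The stages did not overlap, and 1 R442Q embryo, replicate 4, stood above the rest of its group. The change came to 7.97 ± 0.72 log2 in WT (edgeR, adjusted p = 2.5e-09) and 8.01 ± 0.64 in R442Q (edgeR, adjusted p = 2.2e-10). Without WT zygote replicate 3, the zygote at 1.18 FPKM, the WT change was 9.72.

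Pramel4 and Pramel5, the near-identical pair on chromosome 4, did the same. Pramel4 was at 0.2, 0, 0.73, 0.21 and 0 FPKM in WT zygotes and at 114, 209, 95.8 and 126 FPKM in WT late 2-cell embryos. In R442Q zygotes it ran from 0 to 3.99 with a median of 2.06 FPKM, and in R442Q late 2-cell embryos it was 129.8, 68.2, 80.5, 38.8 and 187. Pramel4 rose by 9.34 ± 0.98 log2 in WT (edgeR, adjusted p = 2.5e-08) and by 5.71 ± 0.73 in R442Q (edgeR, adjusted p = 3.7e-07), with 10.55 in WT without WT zygote replicate 3. Pramel5 had 2 counts in the 5 WT zygotes together and 1006 in the 4 WT late 2-cell embryos, a ratio of shares of 810.4, with a 95% counting interval from 224 to 6701. Its late 2-cell values were 56.9, 36.5, 25.4 and 50.7 FPKM in WT and 68.4, 36.9, 63.02, 11.7 and 66.4 in R442Q. Its fitted changes were 9.16 ± 0.87 log2 (edgeR, adjusted p = 5.2e-09) in WT and 7.64 ± 0.69 (edgeR, adjusted p = 1.8e-09) in R442Q. Summed with Gm13102, the pair gave 0.518 ± 0.623 CPM (counts scaled to library size, SD, n = 5) in WT zygotes and 404 ± 115 (n = 4) in WT late 2-cell embryos.

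**Figure D2:**
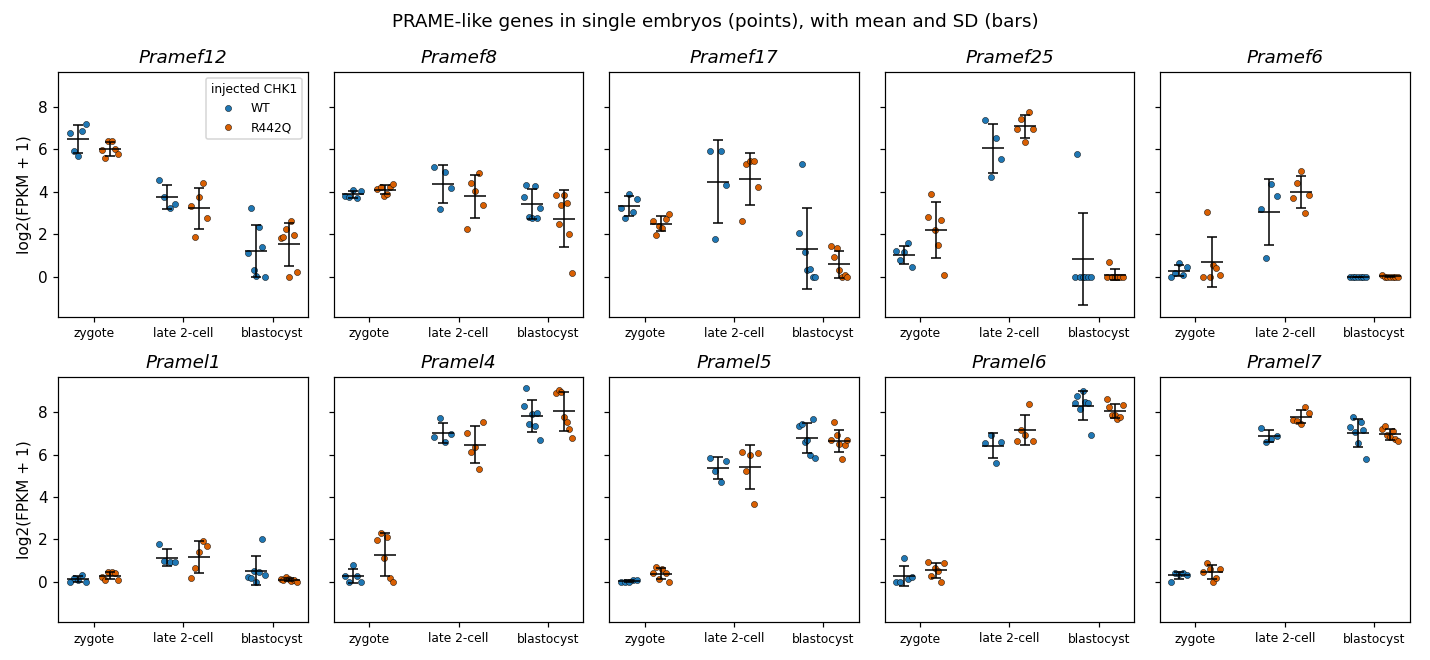
Each panel plots log2(FPKM + 1) of 1 gene in every embryo (points) by stage, for WT (blue) and R442Q (orange), with bars for the group mean and SD. Pramef12 is highest in zygotes, Pramef25 and Pramef6 are highest in late 2-cell embryos, and Pramel4, Pramel5, Pramel6 and Pramel7 are near 0 in zygotes and high at both later stages.

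Pramef25, Pramef6 and Pramef17, all uncertain as to copy, were also called higher in late 2-cell embryos than in zygotes. Pramef25 was at 1.31, 0.7, 1.26, 1.97 and 0.37 FPKM in WT zygotes and 165, 25.4, 91.03 and 46.4 in WT late 2-cell embryos. R442Q zygotes ran from 0.06 to 14.1 with a median of 4.49 FPKM, and R442Q late 2-cell embryos were at 124, 170.2, 79.8, 219 and 124. The WT late 2-cell embryos spread widely, replicate 1 being highest and replicate 2 lowest. Pramef25 rose by 6.13 ± 0.79 log2 in WT (edgeR, adjusted p = 5.8e-07) and by 4.62 ± 0.65 in R442Q (edgeR, adjusted p = 1.7e-06), with 5.45 in WT without WT late 2-cell replicate 1. Pramef6 reached 8.05, 0.81, 19.8 and 13.1 FPKM in WT late 2-cell embryos from at most 0.57 in WT zygotes. In R442Q embryos it ran from 0 to 7.37 with a median of 0.18 FPKM in zygotes, the highest being replicate 2, and was at 12.1, 20.6, 31, 6.96 and 13.4 in late 2-cell embryos. It rose by 5.32 ± 1.28 log2 in WT (edgeR, adjusted p = 0.0011) and by 3.48 ± 1.03 in R442Q (edgeR, adjusted p = 0.0053). The sum of Pramef6 with Gm13083 and Gm13078 rose by 6.01 and 5.98. That sum averaged 309 CPM (counts scaled to library size) in WT late 2-cell embryos, of which Pramef6 itself was 16.1, so it mostly describes the other genes. The WT change of Pramef6 alone was 4.66 without WT late 2-cell replicate 3, and its R442Q change was 6.36 without R442Q zygote replicate 2.

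Pramef17 was already present in zygotes. WT zygotes had 8.49, 5.86, 13.97, 7.35 and 11.6 FPKM, and WT late 2-cell embryos 59.5, 2.38, 59.1 and 18.9. R442Q zygotes ran from 2.87 to 6.77 with a median of 4.67 FPKM, and R442Q late 2-cell embryos were at 5.07, 38.5, 42.4, 42.5 and 17.4. In each genotype 1 late 2-cell embryo lay inside or below the zygote range. Pramef17 rose by 2.39 ± 0.54 log2 in R442Q (edgeR, adjusted p = 5.4e-04) and by 1.81 ± 0.59 in WT (edgeR, adjusted p = 0.0107). The WT call was lost without WT late 2-cell replicate 1 (1.31 log2, adjusted p = 0.0735 in edgeR) or replicate 3 (1.25 log2, adjusted p = 0.0833 in edgeR), and with its copy Gm13128 added the WT change was 2.15 log2 (edgeR, adjusted p = 1.2e-05). Pramel1 stayed low throughout, with at most 2.86 FPKM in any late 2-cell embryo. It was higher in late 2-cell embryos by 3.61 ± 1.01 log2 in WT (edgeR, adjusted p = 0.0037) and by 2.45 ± 0.86 in R442Q (edgeR, adjusted p = 0.0160), with 4.31 in WT without WT zygote replicate 4.

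Pramef12 moved the opposite way. It was the highest of the 10 in zygotes, at 109.8, 59.98, 50.1, 117 and 147 FPKM in WT and from 46.95 to 82.95 with a median of 62.6 in R442Q. Late 2-cell embryos had 22.4, 12.6, 8.56 and 9.73 FPKM in WT and 8.91, 2.60, 12.7, 20.1 and 5.75 in R442Q, all below every zygote. Pramef12 fell by 2.81 on the log2 scale in WT (SE 0.40, edgeR, adjusted p = 2.4e-06) and fell by 2.997 in R442Q (SE 0.36, edgeR, adjusted p = 1.7e-07). Its highest value in any blastocyst was 8.31 FPKM.

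Pramef8 was read in every early embryo. WT zygotes had 12.9, 12.5, 15.9, 12.2 and 15.7 FPKM and WT late 2-cell embryos 34.7, 8.23, 29.4 and 17.4. R442Q late 2-cell embryos had 3.77, 20.4, 15.2, 28.3 and 9.30 FPKM. Zygotes lay in a narrow band, while late 2-cell embryos spread around it. Its change was 0.70 ± 0.40 log2 in WT (edgeR, adjusted p = 0.129) and -0.35 ± 0.36 in R442Q (edgeR, adjusted p = 0.408), past the threshold in neither genotype.

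In all, edgeR called 8 of the 10 genes higher and 1 lower in late 2-cell embryos than in zygotes of the same genotype, in WT and in R442Q alike. Over all 16199 genes tested, 36.2% were called higher and 25% lower in WT, and 35.3% higher and 29.8% lower in R442Q. The median change of the 10 genes was 5.73 log2 in WT, beside 0.34 over all genes, and 4.05 in R442Q, beside 0.22. Pramel1, Pramel5, Pramel6, Pramel7 and Pramef6 passed the filter on low counts through their late 2-cell embryos alone and so had to differ. These counts and medians, and the adjusted p-values of these 5 genes, therefore describe the genes and support nothing further. Another scaling of the libraries (RLE in place of TMM) moved the median of all genes in R442Q from 0.22 to 0.34.

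**Figure D3:**
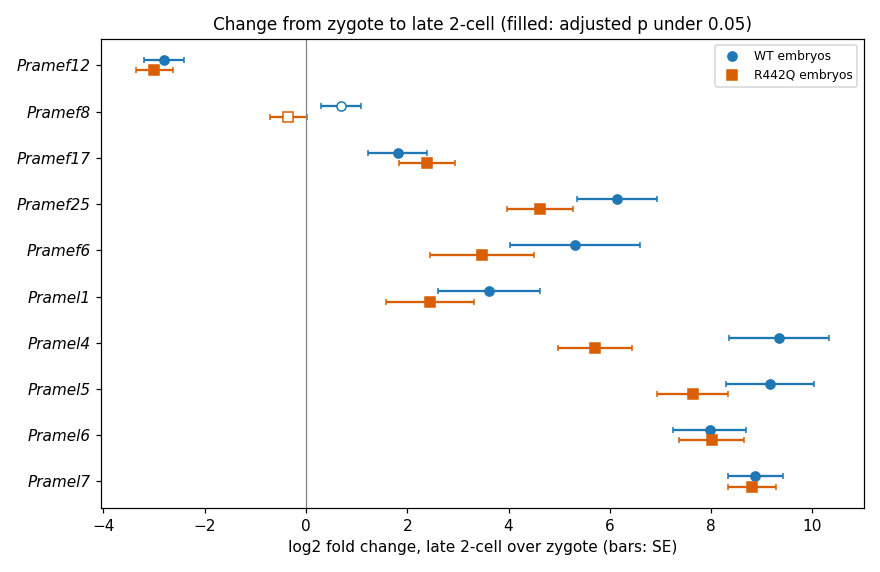
The log2 fold change from zygote to late 2-cell (horizontal axis, with bars for the SE) is shown for each gene in WT (blue circles) and R442Q (orange squares) embryos. Filled symbols passed an adjusted p of 0.05 in edgeR, and Pramef8 is the gene with open symbols. Pramel1, Pramel5, Pramel6, Pramel7 and Pramef6 were tested through late 2-cell embryos alone, so their filled symbols support nothing further.

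Blastocyst levels are given as deposited FPKM and were not tested against earlier stages, because that table holds no counts and lists another set of symbols. Pramel6 ran from 119 to 514 with a median of 347 FPKM in WT blastocysts and from 205 to 395 with a median of 235 in R442Q. Pramel4 ran from 103 to 560.3 with a median of 244 FPKM in WT and from 109 to 530.0 with a median of 221 in R442Q. These were the highest of the 10 at this stage, and their ranges overlapped. Pramel7 ran from 55.1 to 220.5 with a median of 144 FPKM in WT and from 98.1 to 162 with a median of 119 in R442Q. Pramel5 ran from 55.6 to 202 with a median of 103 FPKM in WT and from 54.2 to 183 with a median of 102 in R442Q. Every blastocyst had each of these 4 genes at 54.2 FPKM or more, above the range of any other of the 10 within its genotype. A blastocyst is a mixture of trophectoderm and inner cell mass, and in whole embryos fewer cells of a type cannot be told apart from less RNA per cell.

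Pramef6, Pramef25 and Pramef17 were at or near 0 in most blastocysts. Pramef6 was listed at 0 in 13 of the 14 blastocysts and at 0.05 FPKM in the other. Pramef25 was listed at 0 in 12 of 14, at 0.60 FPKM in 1 R442Q blastocyst and at 53.8 in WT replicate 2. Pramef17 ran from 0 to 38.7 with a median of 0.29 FPKM in WT and from 0 to 1.73 with a median of 0.24 in R442Q, the highest again being WT replicate 2. That embryo also had the highest trophectoderm marker sum of the 14 blastocysts, 24288 FPKM, the highest 2-cell marker sum, 8.38, and the highest cumulus cell marker sum, 69.9, and the part of these in its values was not tested. Without it, the highest WT blastocyst values were 0 for Pramef25 and 3.13 FPKM for Pramef17. Pramef8 ran from 5.76 to 18.9 with a median of 8.51 FPKM in WT and from 0.11 to 13.6 with a median of 9.26 in R442Q, next below Pramel4, Pramel5, Pramel6 and Pramel7 in the order of means in both genotypes.

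The order of levels, in FPKM and so per length, changed with stage. In WT zygotes Pramef12, at 96.8 ± 40.7 FPKM (mean ± SD, n = 5), stood above Pramef8, at 13.8 ± 1.79, with no overlap. Pramef17, at 9.44 ± 3.28 FPKM, overlapped Pramef8 and did not overlap Pramef25, at 1.12 ± 0.62. The other 6 were below 1 FPKM on average and overlapped their neighbours. In WT late 2-cell embryos the order was Pramel4 at 136 ± 49.8 FPKM (mean ± SD, n = 4), Pramel7 at 118 ± 23.4, Pramel6 at 89.9 ± 30.9 and Pramef25 at 82.03 ± 61.9. Every neighbouring pair in that order overlapped, down to Pramel1 at 1.29 ± 0.75. In R442Q late 2-cell embryos Pramel7, at 223 ± 50.3 FPKM (mean ± SD, n = 5), came first, then Pramel6 at 159 ± 99.03, Pramef25 at 143 ± 52.96 and Pramel4 at 101 ± 58.2, again with overlap between neighbours. In WT blastocysts Pramel6, at 342 ± 123 FPKM (mean ± SD, n = 7), was followed by Pramel4, Pramel7 and Pramel5. The break without overlap lay between Pramel5, at 122 ± 56.7, and Pramef8, at 10.8 ± 5.83. The 10 genes together made up 0.0180% ± 0.0060 of the summed FPKM of all genes in WT zygotes and 0.0750% ± 0.0135 at the late 2-cell stage in WT (SD, n = 5 and 4). Their share in WT blastocysts was 0.0861% ± 0.0349 (SD, n = 7). In R442Q embryos the shares were 0.0141% ± 0.0013 in zygotes, 0.0834% ± 0.0122 at the late 2-cell stage and 0.0760% ± 0.0251 in blastocysts (SD, n = 6, 5 and 7).

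In zygotes, the comparison of R442Q with WT called Pramef25 and Pramef8 higher and Pramef17 lower. Of the 10 genes, 5 had enough reads to be tested, and over all 12420 genes tested edgeR called 13.2%, with 6.3% higher and 6.92% lower. Pramef25, listed above at 1.97 FPKM or less in WT zygotes, exceeded that level in 4 of the 6 R442Q zygotes. Its difference was 2.35 ± 0.74 log2 (edgeR, adjusted p = 0.0458). It reached the limit of the filter on low counts in 5 R442Q zygotes and 3 WT zygotes, of 5 required, so it was tested through the group where it was high. Without R442Q replicate 2 it was 1.76. With its copies summed, at 2.05 to 9.34 CPM in WT and 8.998 to 65.9 in R442Q zygotes, the difference was 2.57 (edgeR, adjusted p = 0.0035). Pramef25 itself averaged 1.70 CPM of a summed mean of 4.74 in WT zygotes, and 7.91 of 25.8 in R442Q zygotes. Pramef8 was at 12.9, 12.5, 15.9, 12.2 and 15.7 FPKM in WT and ran from 13 to 19.6 with a median of 17.1 in R442Q zygotes. It was higher by 0.47 ± 0.15 log2 (edgeR, adjusted p = 0.0490), and the groups overlapped. Pramef17 was lower in R442Q, at -0.85 ± 0.27 log2 (edgeR, adjusted p = 0.0452). Of its 6 R442Q values 1 lay above the lowest WT value. With Gm13128 added its difference was -0.70 log2 (edgeR, adjusted p = 0.0829).

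The sums of the oocyte and zygote markers, given above, were lower in R442Q zygotes, and their part in these values was not tested. Each of these 3 calls was close to the threshold and was lost in 8 of the 11 fits that left out 1 zygote, with adjusted p up to 0.129 for Pramef8, 0.127 for Pramef25 and 0.131 for Pramef17 in edgeR. The fits that kept the call were those without WT replicate 3 or R442Q replicate 3 or 4 for Pramef8, without R442Q replicate 3, 4 or 6 for Pramef25, and without WT replicate 2 or 4 or R442Q replicate 6 for Pramef17. None of the 3 passed when both early stages were fitted together (edgeR, adjusted p from 0.0859 to 0.684), a fit that called 1.67% of all genes, and Pramef8 did not pass with no filter on low counts (edgeR, adjusted p = 0.1001). Pramel4 was at 0.73 FPKM or less in WT zygotes and at 1.21 or more in 4 of the 6 R442Q zygotes. Its difference of 3.18 ± 1.06 log2 missed the threshold (edgeR, adjusted p = 0.0554), and passed it without WT zygote replicate 3 or R442Q zygote replicate 5 or 6, and with no filter on low counts. It reached the limit of that filter in 4 R442Q zygotes and 1 WT zygote, and was tested through R442Q. In the 7 fits without 1 zygote that still tested Pramel4, the difference ran from 2.85 to 4.38 log2. With Pramel5 and Gm13102 added it was 3.48 log2 and passed (edgeR, adjusted p = 0.0082), again tested through the R442Q zygotes, where it was high. The summed level ran from 0 to 1.57 CPM in WT and from 0.885 to 10.6 CPM in R442Q zygotes. Pramef12 differed by -0.45 ± 0.25 log2 (edgeR, adjusted p = 0.271), with overlapping values. The remaining 5 genes had too few reads in zygotes to be tested. Their highest values in any zygote were 0.37 FPKM for Pramel1, 0.62 for Pramel5, 0.88 for Pramel7, 1.18 for Pramel6 and 7.37 for Pramef6.

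In late 2-cell embryos edgeR called none of the 10 genes, all of which were tested, and 4.18% of the 13883 genes tested. That share was 0.967% without WT replicate 2 and 6.76% without R442Q replicate 3. At an unadjusted p of 0.05 edgeR counted 2 of the 10, Pramel7 and Pramel6, beside 21% of all genes, and DESeq2 called 1 at an adjusted p of 0.05, beside 14.9% of the 11166 genes to which it gave one. Pramel7 was highest in R442Q, where its lowest value, 175 FPKM, was above the highest WT value, 149.9. Over all genes tested, 4.25% had every R442Q embryo above every WT embryo. The difference in Pramel7 was 1.01 ± 0.29 log2 (edgeR, adjusted p = 0.0608). DESeq2 called it (adjusted p = 0.0061), and so did edgeR without R442Q replicate 3 (1.13 log2, adjusted p = 0.0243). That embryo had 16211 genes at 1 FPKM or more, against 11984 to 14210 in the other late 2-cell embryos. The summed FPKM of all genes ran from 712234 to 742246 in WT and from 814376 to 976830 in R442Q late 2-cell embryos. In CPM, Pramel7 ran from 145 to 221 in WT and from 258 to 449 in R442Q. Pramel6 differed by 0.88 ± 0.40 log2 (edgeR, adjusted p = 0.221) and Pramef25 by 0.91 ± 0.47 (edgeR, adjusted p = 0.289). Without R442Q replicate 4, the embryo with 333 FPKM, the Pramel6 difference was 0.44 log2. Pramel5, Pramef6 and Pramel1 had differences of 0.48, 0.74 and 0.28, and Pramel4, Pramef8, Pramef12 and Pramef17 had -0.36, -0.51, -0.54 and -0.21, all with SEs from 0.43 to 0.94 and an adjusted p of 0.561 or more in edgeR. The marker sums of the oocyte and of the 2-cell stage, given above, also had higher medians in R442Q, and their part in these values was not tested.

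**Figure D4:**
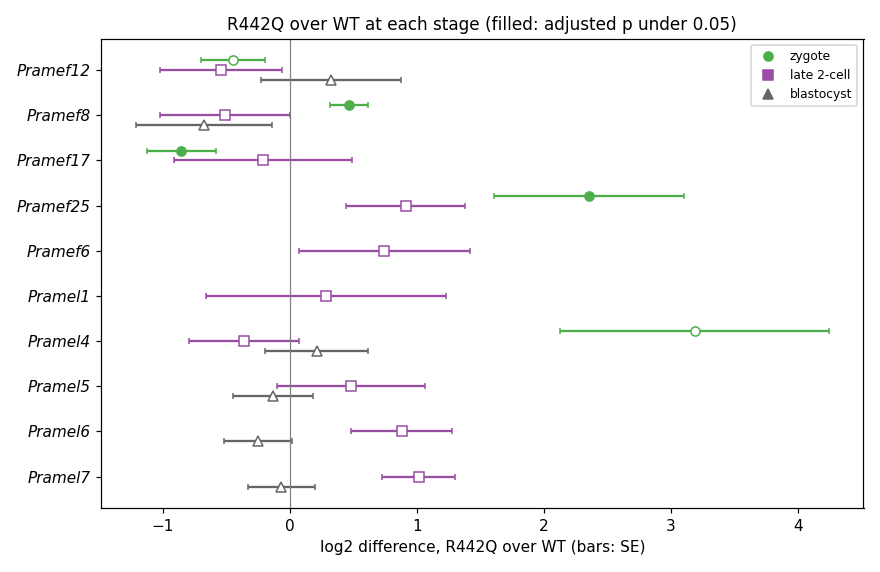
The log2 difference of R442Q from WT (horizontal axis, with bars for the SE) is shown for each gene in zygotes (green circles), late 2-cell embryos (purple squares) and blastocysts (grey triangles). Filled symbols passed an adjusted p of 0.05, and these are Pramef8, Pramef17 and Pramef25 in zygotes.

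In inhibitor-treated blastocysts limma called none of the 6 genes that could be tested, Pramel4, Pramel5, Pramel6, Pramel7, Pramef8 and Pramef12, and 0.00885% of the 11297 genes tested. At an unadjusted p of 0.05 limma counted 0 of the 6, beside 7.4% of all genes. Pramel6 differed by -0.25 ± 0.27 on the log2(FPKM + 1) scale (limma, adjusted p = 0.891), and Pramel7 by -0.067 ± 0.26 (limma, adjusted p = 0.973). Pramel4 differed by 0.21 ± 0.40 (limma, adjusted p = 0.943), and Pramel5 by -0.13 ± 0.31 (limma, adjusted p = 0.958). Pramef8 differed by -0.67 ± 0.54 (limma, adjusted p = 0.843), or by -0.24 without R442Q replicate 7, which was at 0.11 FPKM and had the fewest genes at 1 FPKM or more of the 14 blastocysts, 8189 against 9852 to 12191, and Pramef12 had 0.32 ± 0.55 (limma, adjusted p = 0.934). All 6 genes overlapped between the genotypes.

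The R442Q effect in late 2-cell embryos minus that in zygotes was also tested as an interaction. Pramel4 was the gene of the 10 past the threshold, at -3.63 ± 1.11 log2 (edgeR, adjusted p = 0.0384). The WT zygotes held 18.4 counts of Pramel4 in all, 12.4 of them in replicate 3, so the value rests on a level near 0. Over all genes edgeR called 10.1%, with 3.07% higher and 7.05% lower. Without WT zygote replicate 3 it was -4.84. With its copies summed the difference for Pramel4 was -3.59 log2 (edgeR, adjusted p = 0.0117). It missed the threshold with DESeq2 (adjusted p = 0.0714) and in 15 of 20 fits without 1 embryo (edgeR, adjusted p up to 0.0953), the call being kept without WT zygote replicate 3, R442Q zygote replicate 5 or 6, or R442Q late 2-cell replicate 1 or 5. For Pramef25 the difference of effects was -1.51 log2 (edgeR, adjusted p = 0.327), and from -1.81 to -0.77 without 1 embryo. For Pramef8 it was -1.04 (edgeR, adjusted p = 0.232), and from -1.29 to -0.68 without 1 embryo. The zygote calls of these genes are therefore not shown to differ from their late 2-cell values.

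The rest of the PRAME family in the tables came to 31 symbols at each stage, among them Oog1, Oog2, Oog3, Oog4, Prame, many numbered copies and the antisense gene Pramef12os. Of the 28 tested between zygote and late 2-cell, edgeR called 12 higher and 14 lower in WT and 10 higher and 13 lower in R442Q, with medians of -0.63 and -0.10 log2. These counts stand beside 36.2% higher and 25% lower of all genes in WT and 35.3% and 29.8% in R442Q. Of the 28, 6 passed the filter on low counts through late 2-cell embryos alone, and so had to come out higher. Gm13084 fell by 4.40 on the log2 scale in WT (SE 0.25, edgeR, adjusted p = 2.2e-12) and Pramef20 fell by 5.51 (SE 0.35, edgeR, adjusted p = 1.0e-11). Gm3259 fell by 3.85 (SE 0.26, edgeR, adjusted p = 3.6e-11) and C87977 fell by 4.93 (SE 0.35, edgeR, adjusted p = 7.2e-11). The same 4 were called lower in R442Q embryos, at -4.43 to -3.42 log2. In zygotes edgeR called 4 of the 22 family genes tested higher in R442Q and 2 lower, beside 6.3% and 6.92% of all genes. The higher ones were A430089I19Rik (5.22 log2, edgeR, adjusted p = 0.0024), B020004J07Rik (4.001, edgeR, adjusted p = 0.0027), Gm7978 (3.48, edgeR, adjusted p = 0.0027) and Gm6509 (2.62, edgeR, adjusted p = 0.0067), and the lower ones Gm13089 (-0.72, edgeR, adjusted p = 0.0175) and C87977 (-0.38, edgeR, adjusted p = 0.0313). B020004J07Rik reached the limit of the count filter in 5 R442Q zygotes and no WT zygote, and A430089I19Rik and Gm7978 did so in 1 WT zygote each, so they were tested because R442Q was high. Gm6509 reached it in 6 R442Q zygotes and 4 WT zygotes, of 5 required, so it too was tested through R442Q. Without 1 zygote A430089I19Rik ran from 4.17 (R442Q replicate 2) to 7.11 log2 (WT replicate 3), and B020004J07Rik was 3.02 without R442Q replicate 2. The C87977 call was lost in 7 of 11 fits without 1 zygote (edgeR, adjusted p up to 0.0833) and that of Gm13089 without WT replicate 3 (edgeR, adjusted p = 0.0527). In the fit of both early stages together B020004J07Rik and Gm7978 kept their calls and the other 4 did not. In late 2-cell embryos 1 of 28 was called, C87499, at 12.8 ± 4.40 FPKM in WT and 46.0 ± 24.4 in R442Q (SD, n = 4 and 5; 1.91 ± 0.46 log2, edgeR, adjusted p = 0.0333), beside 4.18% of all genes. That call was kept only without R442Q replicate 3 or 5 among the 9 fits without 1 embryo, and the other 7 gave an adjusted p up to 0.107 in edgeR. In blastocysts limma called none of the 3 family genes tested, with 1, Gm13128, at an unadjusted p under 0.05, beside 0.00885% and 7.4% of all genes.

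The 15 genes measured from a list of the CUL2 ligase and of DNA methylation maintenance, the process Pramel7 is known for, were tested in the same fits. From zygote to late 2-cell edgeR called 2 higher and 8 lower in WT, beside 36.2% and 25% of all genes, and 4 higher and 8 lower in R442Q, beside 35.3% and 29.8%. Elob, an adaptor subunit of the CUL2 ligase, rose by 5.37 ± 0.36 log2 in WT (edgeR, adjusted p = 2.6e-11) and by 6.61 ± 0.35 in R442Q (edgeR, adjusted p = 4.0e-13). Uhrf1, the substrate of Pramel7, averaged 134 ± 33.2 FPKM (SD, n = 5) in WT zygotes and 15.1 ± 2.35 (SD, n = 4) at the later stage. It fell by 3.28 log2 in WT (SE 0.31, edgeR, adjusted p = 5.9e-09) and fell by 3.97 in R442Q (SE 0.29, edgeR, adjusted p = 6.1e-11). Dnmt1 fell by 4.01 log2 in WT (SE 0.49, edgeR, adjusted p = 2.6e-07) and by 2.95 in R442Q (edgeR, adjusted p = 1.7e-06). Tet3, a dioxygenase that oxidises methylated cytosine, fell by 3.09 in WT (SE 0.37, edgeR, adjusted p = 2.1e-07) and by 2.89 in R442Q (edgeR, adjusted p = 7.5e-08). Tet1 was the other gene called higher in WT, and Tet1, Eloc and Pcna were called higher in R442Q, Tet1 not without R442Q late 2-cell replicate 3 (edgeR, adjusted p = 0.0504). Dnmt3a, a de novo methyltransferase, fell by 1.47 log2 in WT (edgeR, adjusted p = 7.1e-06) and by 2.28 in R442Q (SE 0.21, edgeR, adjusted p = 2.2e-09).

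Between genotypes, edgeR called 2 of the 15 higher and 2 lower in R442Q zygotes, beside 6.3% and 6.92% of all genes. Dnmt1 was lower (-1.29 ± 0.17 log2, edgeR, adjusted p = 2.7e-04), as was Eloc, the partner subunit of Elob (-0.45 ± 0.11, edgeR, adjusted p = 0.0155). Dppa3, which shields maternal chromatin from loss of methylation, was higher (0.44 ± 0.08, edgeR, adjusted p = 0.0019), and so was Rbx1, the RING subunit of cullin ligases (0.33 ± 0.10, edgeR, adjusted p = 0.0432). The Rbx1 call was kept only without WT replicate 5 or R442Q replicate 2 or 4 among the 11 fits without 1 zygote (edgeR, adjusted p up to 0.0992 in the others), and was lost with no filter on low counts (edgeR, adjusted p = 0.159). With both early stages fitted together none of these 4 passed (edgeR, adjusted p from 0.0990 to 0.512), in a fit that called 1.67% of all genes. In R442Q late 2-cell embryos 2 were called higher and none lower, beside 4.18% of all genes called either way. These were Pcna, the replication clamp (1.12 ± 0.29 log2, edgeR, adjusted p = 0.0455), and Eloc (1.38 ± 0.36, edgeR, adjusted p = 0.0464). Both calls were lost in 8 of the 9 fits without 1 embryo, all but that without R442Q replicate 3, with an adjusted p up to 0.143 for Pcna and 0.134 for Eloc in edgeR. Pcna was also lost with no filter on low counts (edgeR, adjusted p = 0.0834). For both the genotype effect differed between the stages, by 1.01 log2 for Pcna (edgeR, adjusted p = 0.0158) and 1.74 for Eloc (edgeR, adjusted p = 0.0028), Pcna not with no filter on low counts (edgeR, adjusted p = 0.0518). In blastocysts limma called none of the 14 tested, with 1, Dnmt3l, at an unadjusted p under 0.05, a share close to the 7.4% of all genes. There Uhrf1 stood at 64.6 ± 48.4 FPKM in WT and 35.1 ± 19.7 in R442Q (SD, n = 7 each).

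The genes whose group means most resembled those of Pramel6 and Pramel4, which had the widest ranges of the 10 over the 6 groups (8.02 and 7.77 on the log2(FPKM + 1) scale), were looked up among 12187 candidates. For Pramel6 the closest were Timd2 and Epcam, with root mean square differences of 0.17 and 0.18 log2 after centring. Epcam encodes an epithelial cell adhesion molecule. For Pramel4 they were Rpsa, Hspbp1 and Epcam, at 0.32, 0.34 and 0.41. None of these is named as a PRAME gene in RefSeq.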

How the data were processed

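Single embryos without zona were sequenced by SMART-seq2 with Tn5 (Nextera) libraries on a HiSeq X-10, per the labels' protocols. RSEM and the mouse build mm10 are named in the submitters' processing notes; versions, annotation and use of strand are not given in the sources used here. The deposited zygote and late 2-cell tables hold estimated counts per gene, made by the authors and not normalised, which were rounded to whole numbers. The deposited FPKM tables hold fragments that the authors scaled to transcript length and library size, and are the unit used for blastocysts. Groups and replicate numbers were taken from the sample titles.

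Counts were tested in R 4.3.3 with edgeR 4.0.16 (quasi-likelihood, TMM, filterByExpr with a minimum count of 10), each stage alone for genotype and 4 groups together for stage change and interaction. Blastocysts were tested with limma 3.58.1 (variance trend) on log2(FPKM + 1), for genes at 1 FPKM or more in at least 7 embryos; this scale understates changes of low genes. Calls had a Benjamini-Hochberg adjusted p under 0.05 over all genes tested, never over the 10 alone. Standard errors are the fold change over the root of the test statistic. Alternatives were RLE scaling, no filter, DESeq2 1.42.0, a replicate block, FPKM in place of counts, a joint fit, other pseudocounts and each embryo left out. Near-identical copies were summed as an alternative chosen after seeing the data. The code was tested on simulated data. Intervals cover counting error only, since amplified reads carry no molecular identifiers.

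Positions, transcripts and shared 50-base stretches come from GENCODE M21 (GRCm38), and upstream windows from RefSeq GRCm38.p6. In RefSeq, Pramef6, Pramef8, Pramef12, Pramef17 and Pramef25 carry the names Pramel11, Pramel12, Pramel13, Pramel14 and Pramel16. All 10 genes are named whether or not they passed a filter. Of the other family and pathway genes, those past the threshold are named, at most 4 per list and comparison by adjusted p. The other genes named were chosen after their values were seen. These are Gm13089, C87977 in zygotes, Gm13128, Dnmt3l, Tet1, Dnmt3a in the WT stage change, and Dnmt1, Eloc and Pcna in the R442Q stage change. Likeness is the root mean square difference of centred group means, for genes with a group mean of at least 5 FPKM; 1 gene near Pramel6 is not reported here. The genes and lists were chosen with earlier results of these data known.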

Additional observations from a re-analysis of the deposited data

Results flagged for a closer look

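Among 47 groups of 4 to 7 embryos, 7 held an embryo set apart from the others of its group by more than Dixon's 95% limit. That limit is made for normally distributed values, and many of these FPKM groups lie at or near 0. The share that chance would set apart is therefore not known. In each of the 7 the embryo stood above the others. Pramef6 was at 7.37 FPKM in R442Q zygote replicate 2, against a median of 0.05 in the others. WT blastocyst replicate 2 had 38.67 FPKM of Pramef17, against a median of 0.27 in the other WT blastocysts, and 53.84 FPKM of Pramef25, against 0. Pramel1 was at 2.42 FPKM in WT late 2-cell replicate 1 (median of the others 0.90) and at 3 FPKM in WT blastocyst replicate 6 (median of the others 0.21). Pramel6 was at 1.18 FPKM in WT zygote replicate 3, where the others had a median of 0.05, and at 333.12 FPKM in R442Q late 2-cell replicate 4, where the others had a median of 109.4. The R442Q effect on Pramel4 differed between zygotes and late 2-cell embryos, by -3.63 log2 (edgeR, adjusted p = 0.0384), a call that DESeq2 did not make (adjusted p = 0.0714) and that was lost in 15 of 20 fits without 1 embryo (edgeR, adjusted p up to 0.0953).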

How the results depend on the processing

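From zygote to late 2-cell the count of genes called higher was 7 or 8 in each genotype under every alternative run, and 7 to 8 in WT when 1 embryo was left out; the count called lower was 1 throughout. Summing copies merged Pramel5 into Pramel4 and so left 9 genes. The count of 2 genes called higher in R442Q zygotes became 0 with limma on FPKM, 0 when both early stages were fitted together, 0 to 2 without 1 embryo and 3 with copies summed. These counts take in Pramel4 where it passed, as it did with copies summed. Over all genes, 783 higher and 860 lower became 411 and 1231 with limma and 197 and 73 in the joint fit. The 1 called lower became 0 in the joint fit, 0 with copies summed and 0 to 1 without 1 embryo. In late 2-cell embryos the count of 0 higher became 1 with DESeq2, and 0 to 1 without 1 embryo. The 1 gene whose genotype effect differed between stages became 0 with DESeq2, and 0 to 1 without 1 embryo. With RLE scaling the median of that difference over all genes moved from -0.16 to -0.01, and the genes called higher and lower went from 497 and 1142 to 707 and 917.

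Same-numbered embryos of the 2 genotypes did not deviate together (correlations from -0.168 to 0.207, best match with its own number in 4 of 16), nor did those that share a number in the sample descriptions (-0.168 to 0.204, 2 of 15), so neither number is treated as a pairing. Under a replicate block the 2 genes called higher in R442Q zygotes were Pramef25 and Pramel4 (adjusted p = 0.0189) in place of Pramef8 (0.154), as with no filter (0.0022 and 0.1001), and among other genes the genotype calls of Rbx1 in zygotes and of C87499, Pcna and Eloc in late 2-cell embryos and the differences of effects of Gm13023 and Pcna were not made (edgeR, adjusted p from 0.0545 to 0.145). The count of members' effects that differed between stages became 0, Pramel1 in R442Q embryos had a stage change of 2.06 log2 (edgeR, adjusted p = 0.0846), and the genotype difference in late 2-cell embryos became -0.30 log2 for Pramel1 and 0.29 for Pramef17. With limma on FPKM the latter was 0.12.

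Some values without a call changed sign. Without 1 embryo the late 2-cell difference ran from -0.10 to 0.71 log2 for Pramel1 and from -0.60 to 0.17 for Pramef17. In blastocysts it ran from -0.27 to 0.059 for Pramel7 and from -0.29 to 0.013 for Pramel5. The difference of effects ran from -1.71 to 0.54 for Pramel6, from -0.26 to 0.44 for Pramel7, from -0.42 to 0.23 for Pramef12 and from -2.26 to 1.23 for Pramef6, whose value of -1.84 turned only without R442Q zygote replicate 2. For Pramel7 it was 0.10 with RLE, 0.066 with DESeq2, 0.031 with the replicate block and 0.089 with copies summed. The cause was not tested for any of these. In zygotes 5 of the 10 genes had too few counts to be tested between genotypes, in libraries of 7183632 counts or more.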

Other observations

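Gm13128, which holds the stretches that Pramef17 shares, was present in all 14 blastocysts, at 12.6 to 127.5 FPKM in WT and 5.57 to 26.1 in R442Q, while Pramef17 was at 3.13 FPKM or less in 13 of them. In zygotes the order was the reverse, with Gm13128 at 0.26 ± 0.17 FPKM in WT (SD, n = 5) and Pramef17 at 9.44 ± 3.28. WT blastocyst replicate 2 had the highest value of both, 127.5 FPKM of Gm13128 and 38.7 of Pramef17. In late 2-cell embryos Gm13128 ran from 0.19 to 46.6 FPKM in R442Q and from 7.63 to 20.5 in WT. The sources used here do not say how reads shared between such copies were assigned beyond naming RSEM.

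C87499, a PRAME gene of the early embryo called higher in R442Q late 2-cell embryos, was at 443 ± 108 FPKM in WT zygotes (SD, n = 5) and was listed at 0 in all 14 blastocysts. Its R442Q effect differed between zygotes and late 2-cell embryos by 2.03 log2 (edgeR, adjusted p = 0.0046), and was past the threshold in each of 20 fits without 1 embryo. B020004J07Rik differed by -2.84 (edgeR, adjusted p = 0.0453), but was past the threshold only without R442Q zygote replicate 3 or 6 among those fits, and not with RLE scaling (adjusted p = 0.0609), and it was -1.70 without R442Q zygote replicate 2. Gm13023 differed by 1.02 (edgeR, adjusted p = 0.0489) and lost the call in 9 of the 20, those without WT zygote replicate 1, 3, 4 or 5, R442Q zygote replicate 2, WT late 2-cell replicate 1, 2 or 4, or R442Q late 2-cell replicate 1.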
